A study of Mus musculus with 4 samples.

Results

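Of 10 laminin, nidogen and perlecan genes, 1 had a RUNX1 peak in the fetal ovary. The 10 genes examined are Lama1, Lama2, Lama4, Lama5, Lamb1, Lamb2, Lamc1, Nid1, Nid2 and Hspg2, chosen by name as genes of the basement membrane, and all 10 were found among the 26180 genes with curated RefSeq transcripts. A peak was taken to belong to a gene if the transcription start site (TSS) nearest to the edge of the peak was that of the gene, or if the midpoint of the peak lay within the gene body, from the first to the last transcribed base. By this rule the 10 genes had 1 of the 10494 peaks, at Lamc1, and the other 9 had 0. The peaks are regions where RUNX1, a transcription factor of the ovarian supporting cells, sat on the chromatin of ovaries from embryos of the outbred CD1 strain at embryonic day E14.5, for which the labels give no genetic change and no treatment. RUNX1 was measured by ChIP-seq, in which DNA pulled down by an antibody is sequenced, in 2 samples, and DNA that was not pulled down was sequenced in 2 input samples. Per the labels, each RUNX1 ChIP used 20 to 30 μg of chromatin from a pool of 80 to 100 ovaries and 10 μl of antibody. The methods of the study give a somewhat larger pool. Because whole ovaries were pooled, the cell type in which a region was bound is not resolved.

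Basement membranes are sheets of extracellular matrix that surround epithelial cords, muscle, nerve and blood vessels. Laminins, which assemble from an alpha, a beta and a gamma chain, polymerise into a first network on the cell surface. Type IV collagen forms another network, the nidogens link laminin to it, and perlecan, the product of Hspg2, is a heparan sulphate proteoglycan that binds both and holds growth factors. In the fetal testis, laminin outlines the cords in which supporting cells enclose germ cells, whereas the fetal ovary at this stage lacks such sharply outlined cords.

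The peaks of both RUNX1 replicates had been called on merged reads. A peak therefore has a single fold over background and a single p-value from the authors' peak caller, without replicate error, and the number of reads behind it is not known here. The folds of all peaks ran from 4.01 to 358.22 with a median of 6.41 (quartiles 5.02 and 8.89), and every peak was 300 bp wide. Binding too weak for the lower limit is left out of the list and was not examined here, so the lack of a peak does not mean the lack of binding. Because there is 1 merged list, the comparisons below are counts and ranks within it and no test was made.

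Across the genome, 36.6% of curated genes and 40.8% of protein-coding genes had a peak by the same rule, against 1 of the 10 basement membrane genes. Counting only the nearest TSS, the share of all curated genes was 34.6%, and the count for the 10 genes was again 1. At the limits used for stronger peaks the shares were close. With a fold of at least 8, 12.3% of all curated genes were nearest to a peak, beside 1 of the 10. With a p-value under 1e-20 it was 13.2%, beside 1 of the 10. Both counts rest on the Lamc1 peak, which only just passed the limits (fold 8.33, peak caller p-value 3.08e-21). Its fold was below the upper quartile of all peaks, 8.89, so a limit set there would leave the 10 genes without a peak. Of the 10 genes, 3 had a peak within 50 kb of their TSS, against 62.8% of protein-coding genes. Whether 1 of 10 differs from these shares was not tested, since the genes were grouped with results of this list known.

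The peak of Lamc1 covered the start of the gene. Lamc1 encodes the gamma1 chain, which is shared by most laminins, and has 28 exons between positions 153218922 and 153332786 of chromosome 1 (build mm10, reverse strand). The peak, chr1:153332552-153332851, had a fold of 8.33 and a p-value of 3.08e-21. Its fold was higher than that of 70.3% of all peaks and ranked 2994 of 10494. Its midpoint lay 85 bp into exon 1. Of its 300 bases, 65 lay upstream of the TSS and 235 in the 5′ UTR, and it ended 12 bases short of the start codon.

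Among the 3587 peaks that covered a TSS, the Lamc1 peak was in the upper part of the range. The median fold of these peaks was 6.44 (quartiles 5.09 and 8.89), and 70.4% of them had a lower fold. The DNA under the peak was rich in G and C. Its GC content was 73.7% against a median of 67.7% in peaks at a TSS, and it held 36 CpG dinucleotides against a median of 29.

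The Lamc1 peak held no match to the RUNX core, TGTGGT or TGCGGT, on either strand. The core was found in 39.9% of all peaks and in 34.8% of the peaks at a TSS. For a single peak this count of 0 of 1 carries an exact binomial 95% interval from 0 to 97.5%, so it says little beyond the peak itself. The core nearest to the midpoint of the peak lay 787 bp away, 7 cores lay within 5 kb on either side, and the windows of 300 bp placed 1 kb to each side held 0. The peak also held no match to the other 9 sites searched. These were forkhead (TATTTAC or TGTTTAC), CTCF, NR5A (CAAGGCCA or CAAGGTCA), TEAD (AGGAATG or GGGAATG), ETS (CCGGAAGT), NFY (CCAAT), the GATA factors (AGATAA or TGATAA), E-box (CACGTG) and SP/KLF (GGGCGG). SP/KLF sites, the commonest of these, lay in 71.0% of the peaks at a TSS. A peak without any of the 10 sites was uncommon, at 7.78% of the peaks at a TSS and 11.8% of all peaks.

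Around Lamc1, the next peaks were far off. Upstream, the nearest was 154 kb from the TSS and belonged to the RNA helicase gene Dhx9 (fold 5.18). Downstream, the nearest was 376 kb away at Nmnat2, the gene of an enzyme of NAD synthesis (fold 14.19).

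The alpha chains determine which receptors a laminin binds, and none of the 4 alpha chain genes examined had a peak. Lama1, the gene of the alpha1 chain of early embryonic basement membranes, spans 125 kb of chromosome 17 (67697265 to 67822645, 63 exons), and the peak nearest to its TSS lay 292 kb downstream, closest to Arhgap28 (fold 6.66). Lama2, the gene of the alpha2 chain of muscle and nerve, is the longest of the 10 at 636 kb on chromosome 10 (26981285 to 27616942, 65 exons). Its nearest peak lay 458 kb upstream, 55 bp from the TSS of the phosphatase gene Ptprk (fold 6.58). Lama4, the gene of the alpha4 chain of blood vessels, spans 145 kb of the same chromosome (38965515 to 39110188, 38 exons). Its nearest peak was 206 kb downstream of the TSS, with a fold of 17.12, and belonged to Ccn6. Lama5, the gene of the widely expressed alpha5 chain, spans 49.5 kb of chromosome 2 (180176373 to 180225859, 79 exons). It had 2 peaks within 50 kb of its TSS, and both belonged to other genes. The nearer, 31.5 kb upstream, covered the TSS of the ribosomal protein gene Rps21 (fold 9.49), and the other was nearest to Cables2 (fold 5.42). The alpha chain genes thus differed in their surroundings, from a peak 31.5 kb from the TSS at Lama5 to none nearer than 458 kb at Lama2.

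Neither beta chain gene had a peak of its own. Lamb1, the gene of the common beta1 chain, spans 64.4 kb of chromosome 12 (31265293 to 31329644, 33 exons). Its nearest peak was 85.6 kb downstream of the TSS, 314 bp from the TSS of Dld, the gene of a mitochondrial dehydrogenase (fold 11.57). Lamb2, the gene of the beta2 chain found at synapses and in the kidney filter, is the shortest of the 10 at 10.7 kb on chromosome 9 (108479862 to 108490530, 33 exons). A peak at chr9:108490772-108491071 began 242 bp past its last base. This peak lay 10.9 kb from the Lamb2 TSS but 96 bp from the TSS of the next gene, the deubiquitinase gene Usp19 (fold 5.04), to which it was assigned. Lamb2 lies among closely packed genes, and 5 peaks fell within 50 kb of its TSS, at Klhdc8b (fold 11.28), Usp19, Qars (fold 5.02) and Qrich1 (folds 5.31 and 14.07). The Klhdc8b peak and the stronger Qrich1 peak each held 1 RUNX core, and the other 3 held 0.

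The linker genes had no peaks either. Nid1 spans 74.7 kb of chromosome 13 (13437602 to 13512275, 20 exons), and its nearest peak, 153 kb downstream of the TSS, covered the TSS of Lyst, a lysosomal trafficking gene, with a fold of 18.05 and 2 RUNX cores. Nid2 spans 60.5 kb of chromosome 14 (19751257 to 19811787, 21 exons), with the nearest peak 332 kb downstream at Saysd1 (fold 8.56). Hspg2 spans 102 kb of chromosome 4 (137468803 to 137570630, 97 exons), and its nearest peak, 80.3 kb upstream, was closest to Cela3a (fold 4.14).

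**Figure D1:**
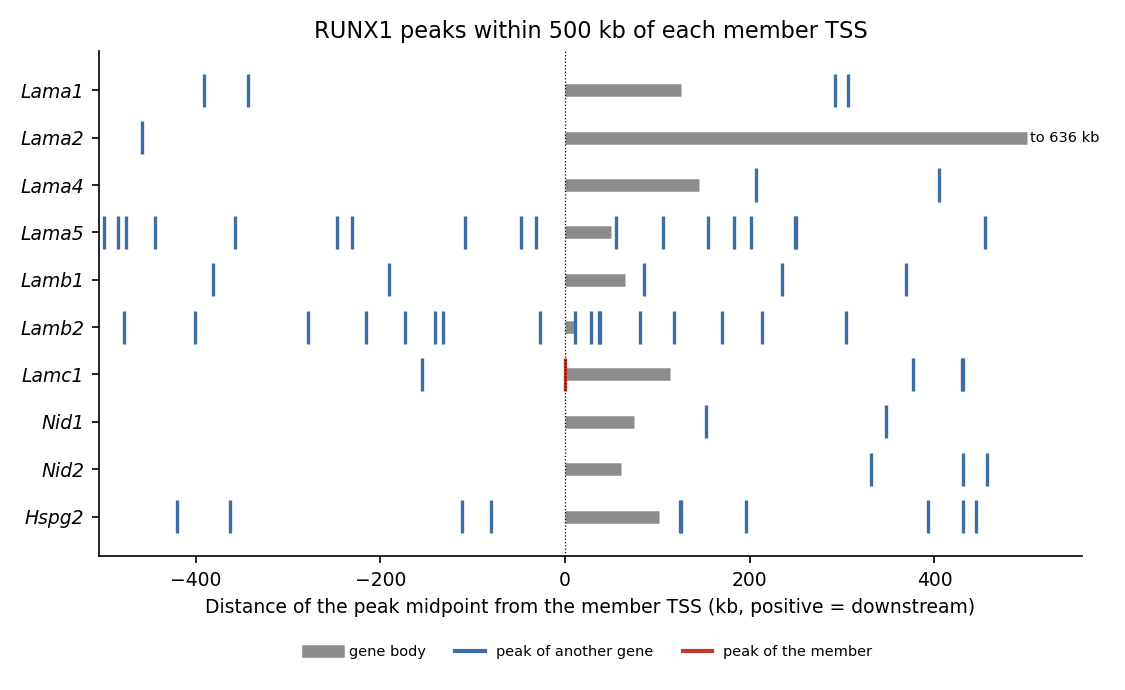
RUNX1 peaks of E14.5 ovaries around each gene, with the distance of the peak midpoint from the TSS in kb on the horizontal axis (positive values lie downstream), gene bodies as grey bars, peaks of other genes as blue lines and the peak of the gene itself as a red line. Lamc1 alone has a peak on its own start, whereas Lama5 and Lamb2 stand among 18 and 17 peaks within 500 kb and Lama2 has 1.

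The distance from the TSS to the nearest peak had a median of 119 kb over the 10 genes, against 19.8 kb over 20923 protein-coding genes. It was over 50 kb for 7 of the 10 (37.0% of protein-coding genes) and over 100 kb for 5 (26.4%). Lamb2 and Lama5 were the nearest to a peak after Lamc1, with 44.6% and 56.1% of protein-coding genes closer to one than they were. Lama2 was the farthest, with 91.2% closer. The gaps between the peaks that flank the 9 genes without a peak ran from 37.8 kb at Lamb2 to 1749 kb at Lama4. Those of Lama2, Lama4, Nid1 and Nid2 were over 1000 kb, against a median of 79.1 kb over all 10470 gaps between neighbouring peaks. A long gene can only fit in a long gap, so the gaps of genes are not a sample of all gaps.

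The genes are long, but their bodies held few peaks. The bodies summed to 1.38 Mb and held 1 peak, or 0.0724 peaks per 100 kb. Over the 12778 protein-coding genes with bodies between the shortest and the longest of the 10, the value was 0.684 peaks per 100 kb, and 50.3% of them had a peak. Lengths within this range were not matched to those of the 10 genes. A peak at a TSS adds more per 100 kb to a short gene than to a long one, so these densities are not matched for length. Of the 5 genes of at least 100 kb, Lamc1 had a peak, whereas 61.8% of the 2317 protein-coding genes of this length had one. The 9 bodies without a peak held 1114 RUNX cores, from 9 in Lamb2 to 466 in Lama2, at 0.879 per kb against 0.832 per kb of the genome. The density was above that of the genome in 8 of the 9, up to 1.39 per kb in Lama5, and below it in Lama2, the longest, at 0.733 per kb. The body of Lamc1, which had a peak, held 136 cores (1.19 per kb), and such 6 bp matches are frequent by their length alone.

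The promoters were compared by the RefSeq sequences of GRCm38, the assembly also named mm10, from 250 bases before the TSS to 50 after it. Of the 10 genes, 6 matched, Lama2, Lama5, Lamb1, Lamb2, Nid1 and Hspg2, all without a peak. Those not matched were Lama1, Lama4, Lamc1 and Nid2. A RUNX core lay in 21.3% of the promoters of 16853 protein-coding genes and in 1 of the 6, that of Lama5. It is TGCGGT, beginning at base 15 of the transcript, and is shown in capitals because it is the only core in the 6 promoters (chr2:180225830-180225855, reverse strand).

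Lama5: gccgggctccTGCGGTgcgcgctgtc

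The stretches before the TSS of Lamb2 and Hspg2 are shown with CpG dinucleotides in capitals, because these promoters without peaks differ widely in GC content. They are on the forward strand, at chr9:108479612-108479846 for Lamb2 and chr4:137468553-137468750 for Hspg2, and leave out bases within annotated exons.

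Lamb2: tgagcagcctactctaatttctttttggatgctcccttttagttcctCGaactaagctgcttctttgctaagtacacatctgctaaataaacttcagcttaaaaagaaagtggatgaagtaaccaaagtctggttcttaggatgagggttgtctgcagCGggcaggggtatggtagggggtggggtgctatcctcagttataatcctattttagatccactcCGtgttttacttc

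Hspg2: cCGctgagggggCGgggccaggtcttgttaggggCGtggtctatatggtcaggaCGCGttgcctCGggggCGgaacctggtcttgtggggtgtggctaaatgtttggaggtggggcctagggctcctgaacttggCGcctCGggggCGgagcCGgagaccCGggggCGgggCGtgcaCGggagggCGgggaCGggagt

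The Lamb2 stretch holds 3 CpG in 235 bases and the Hspg2 stretch 17 in 198. Over the whole promoter window, GC content was 44.0% in Lamb2, 50.3% in Lama2, 63.7% in Lamb1, 64.7% in Nid1, 70.3% in Hspg2 and 72.7% in Lama5. Promoters of genes nearest to a peak had a median GC content of 62.7%, and those of other genes 52.3%. With rising GC content, the share of genes with a peak rose from 7.28% in promoters of up to 45% GC to 72.9% in those above 75%. In the range of Lamb2 it was 7.28% and in that of Lama2 30.2%. For Lamb1 and Nid1 it was 54.9%, and for Hspg2 and Lama5 it reached 67.3%. The 6 promoters without a peak were therefore spread over poor and rich sequence, and 4 of them were in ranges where most genes had a peak. SP/KLF sites lay in 5 of the 6, all but Lamb2, with 5 in Hspg2 and 4 in Lama5, against 47.7% of all promoters. The site, GGGCGG, is made of G and C alone, and this share was not matched for GC content.

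**Figure D2:**
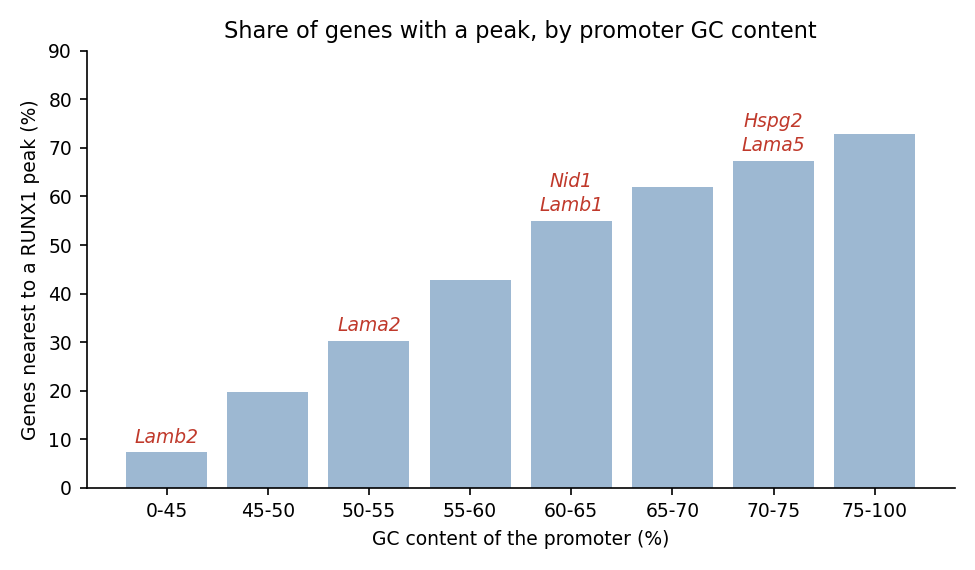
Share of protein-coding genes nearest to a RUNX1 peak, in percent, by GC content of the promoter in percent, over 16853 promoters. The names above the bars place the 6 matched genes, none of which had a peak; the bars rise from 7.28% to 72.9%, and Hspg2 and Lama5 stand over the bar of 67.3%.

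Other genes of the basement membrane, and of its receptors and proteases, had RUNX1 peaks at about the share of all genes. Over 5 lists of 46 such genes, 19 (41.3%) were nearest to a peak, beside the 34.6% of all curated genes and 1 of the 10 laminin, nidogen and perlecan genes. All curated genes include noncoding ones, whereas the listed genes encode proteins. Among protein-coding genes, with peaks in the body counted too, the share was 40.8%. At the limits for stronger peaks, which the Lamc1 peak only just passed, the difference between the 46 genes and the 10 was much smaller. With a fold of at least 8, 7 of the 46 (15.2%) had a peak, against 12.3% of all curated genes and 1 of the 10. With a p-value under 1e-20 it was 6 of the 46 (13.0%), against 13.2% and 1 of the 10. The strongest peak of each of the 19 had a median fold of 6.40, against 6.67 over all genes with a peak. A RUNX core lay in a peak of 10 of the 19, and 39.9% of all peaks had one. The first is a count of genes, in which several peaks can serve 1 gene and Col4a1 and Col4a2 share a peak. It is therefore not a like value for the share of peaks, and the share over all genes with a peak was not worked out. The peak of Lamc1, at 8.33, was stronger than the strongest peak of 67.0% of all genes with one.

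Among the other laminin chains, 1 of 4 had a peak. Lama3, the gene of the alpha3 chain of skin laminin, had a weak peak (fold 4.32, 0 RUNX cores) in exon 1, 38 bp past its TSS. Of the 6 type IV collagen genes, 2 had a peak. Col4a1 and Col4a2, which encode the chains of most basement membranes, start back to back and shared a peak at chr8:11312625-11312924 with a fold of 6.40 and 1 RUNX core. Col4a1 had a second peak 499 bp upstream of its TSS (fold 4.20, 1 core), and Col4a2 another 125 kb upstream (fold 4.40, 0 cores). The genes of the chains restricted to certain tissues, Col4a3, Col4a4, Col4a5 and Col4a6, had none. Among all collagen chain genes, basement membrane or not, 17 of 44 (38.6%) were nearest to a peak.

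Of 17 other basement membrane proteins, 9 genes had a peak. The strongest were at Frem2, the gene of a Fraser syndrome matrix protein, with a peak over its TSS (fold 13.88, 2 RUNX cores), and at Smoc2, a calcium-binding matrix protein gene, with a peak 46.8 kb into the gene (fold 11.57, 2 cores). Ntn4, the gene of a netrin that binds laminin, had a peak 64 bp upstream of its TSS (fold 11.11, 0 cores). Fras1, the partner of Frem2, had a peak in exon 1 (fold 8.25, 1 core). Agrn, the gene of the heparan sulphate proteoglycan agrin, had a peak in exon 1 (fold 6.29, 0 cores), unlike the perlecan gene Hspg2. Neither Col18a1 nor Col15a1 had a peak.

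Of 13 receptors of the basement membrane, 6 had a peak. Itgb1, the gene of the beta1 integrin subunit common to many laminin receptors, had the strongest peak of the 46 genes (fold 19.44). This peak, in intron 1 and 214 bp past the TSS, held 0 RUNX cores, and another 134 kb upstream (fold 7.03) held 1. Sdc4, the gene of the cell surface proteoglycan syndecan 4, had 3 peaks, the strongest over its TSS (fold 13.27, 0 cores). The peak 6.49 kb upstream (fold 10.28) held 1 core and that in intron 1 (fold 9.02) held 0. Sdc1 had 2, with folds of 5.55 and 6.79, and Itga6, the gene of an alpha integrin subunit that binds laminin, had 1 in intron 1 (fold 6.38). Dag1, the gene of the laminin receptor dystroglycan, had a peak over its TSS with a fold of 4.89. The peaks of Sdc1, Itga6 and Dag1 held 0 cores. Itga3, Itga7 and Itgb4, of other laminin-binding integrins, had none. Of the 6 matrix proteases and inhibitors, Timp2 had a peak over its TSS (fold 9.46, 0 RUNX cores). Mmp2, Mmp9, Mmp14, Timp1 and Timp3 were nearest to none. Mmp2, the gene of a gelatinase, nevertheless held a peak within its body, in intron 11 (fold 8.64, 0 RUNX cores), which was nearest to the TSS of the next gene, Lpcat2. With peaks in the gene body counted too, as for the 10 genes, 20 of the 46 had a peak. By this rule 36.6% of all curated genes and 40.8% of protein-coding genes had one.

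**Figure D3:**
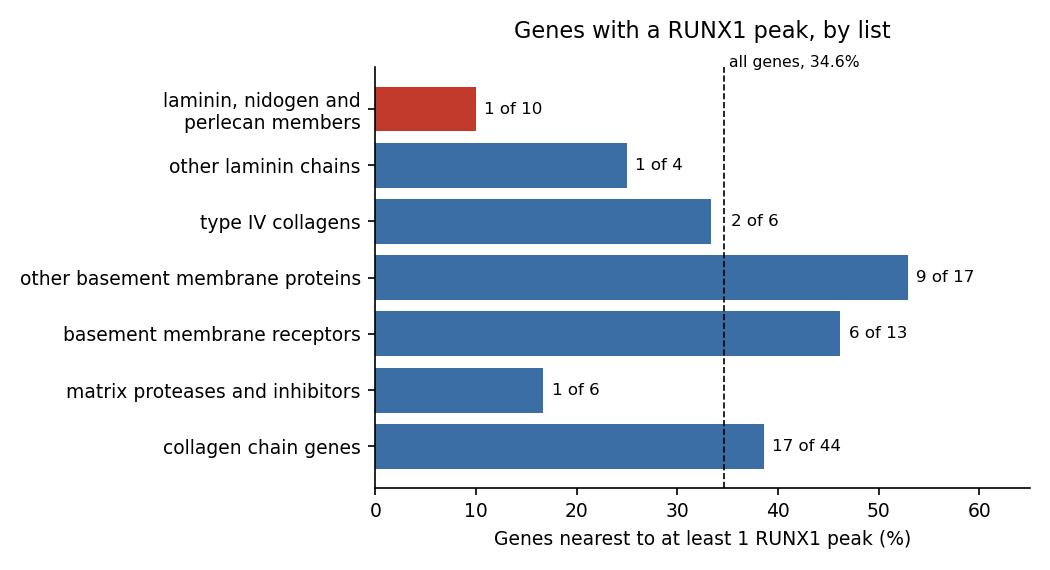
Share of genes nearest to at least 1 RUNX1 peak, in percent, for the 10 laminin, nidogen and perlecan genes (red) and for other lists (blue), with the number of genes beside each bar. The dashed line is the 34.6% of all curated genes, noncoding ones included. The 10 genes stand lowest at 1 of 10, and other basement membrane proteins highest at 9 of 17; the lists hold 4 to 44 genes, and their differences were not tested.

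**Figure D4:**
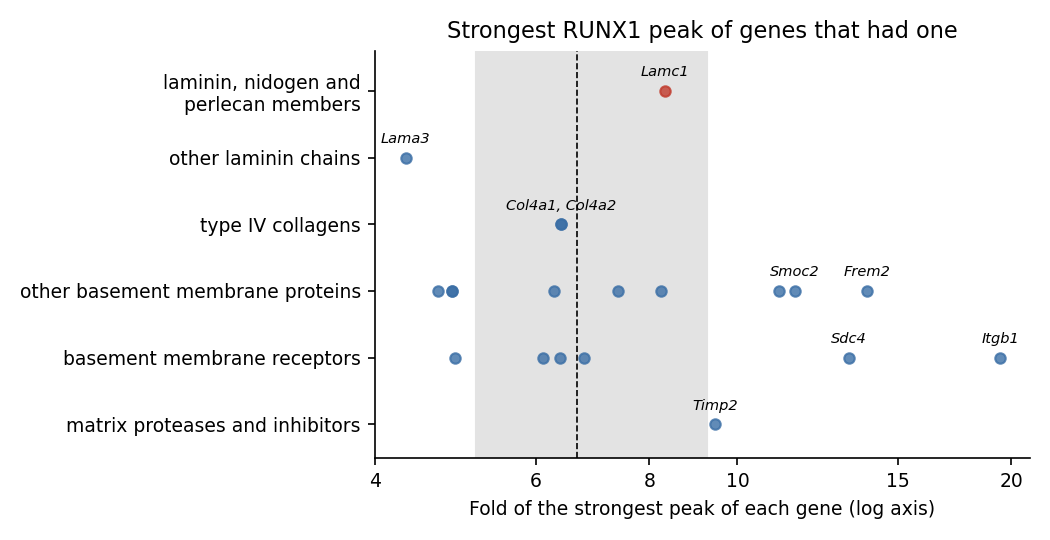
Fold of the strongest RUNX1 peak of each gene that had one, on a log axis, by list. The lists hold genes of the basement membrane, of its receptors, such as Itgb1, and of matrix proteases and inhibitors. The grey band and dashed line are the quartiles (5.16 and 9.26) and median (6.67) over all genes with a peak; Lamc1 (red) lies within the band at 8.33, below Itgb1 at 19.44.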

How the data were processed

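RUNX1 ChIP-seq and input libraries from E14.5 ovaries gave 1 deposited peak list. According to the methods and the submitters' processing notes, the authors filtered single-end reads on base quality, mapped them uniquely to mm10 with Bowtie 1.2, removed duplicates with Picard 1.110, merged the replicates, called peaks with HOMER 4.9, reset them to 300 bp and filtered them on enrichment. The deposited fold is a ratio to background, and the deposited p-value is that of the caller. Read totals are not part of the list, so depth per peak is unknown. The methods of the study give totals of uniquely mapped reads for the RUNX1 replicates, and these were unequal. Unique mapping leaves out repeats, and the filter leaves out weak binding.

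Peaks on assembled chromosomes (10490, with 4 left out) were assigned to 45756 curated RefSeq transcripts, ties kept. A peak over a TSS is one whose 300 bp include it. Sites were matched on both strands in Python 3.11.15, and the search was tested on planted sites. The genes and lists were chosen with earlier results of these data known. All 10 genes are named, with up to 4 genes per other list by highest fold; other names, and genes without a peak, were added after their values were seen. Further genes of the other lists are counted but not named, and the result for one gene is not reported here. No test was run. The settings varied were the limits on fold and p-value, the gene models and distances, and the form of the core.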

Additional observations from a re-analysis of the deposited data

How the results depend on the processing

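Of 39 alternative settings over 7 results, 33 left the value unchanged or within 1.5 times. Many of these could not have changed it, because the 10 genes had only the Lamc1 peak, with a fold of 8.33 and 0 RUNX cores. Another choice among the peaks returned the same fold, and a stricter form of the core could not raise the 0. The tally is therefore no measure of how robust the results for the 10 genes are. The 10 genes had 1 peak, at 1 gene, with a fold of at least 8, a p-value under 1e-20, distances from the peak midpoint, predicted transcripts, protein-coding genes alone, TSSs within 10 kb, or GENCODE M21 transcripts, an alternative added after seeing the data. When every TSS within 50 kb counted, 3 genes and 8 peaks were found, those near Lama5 and Lamb2 being nearer to other genes. The Lamc1 peak counted as exonic by its midpoint, with 0 promoter peaks, and as 1 promoter peak when any overlap counted. Without peaks within 1 kb of a TSS, the bodies held 0 peaks per 100 kb. The 0.684 per 100 kb of other protein-coding genes includes such peaks, so it is not a like value for this 0. Of the 46 genes of the other lists, receptors and proteases included, 7 had a peak with a fold of at least 8 (15.2%). With a p-value under 1e-20, 6 had one (13.0%). The shares of all curated genes at these limits were 12.3% and 13.2%. No paired analysis was possible because the replicates were merged before peaks were called. Without values per replicate, neither an error nor a replicate left out could be given.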
